A study of Mus musculus with 16 samples.

Results

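The 10 genes described here are the 3 D-type cyclins (Ccnd1, Ccnd2, Ccnd3), their kinases (Cdk4, Cdk6), 4 inhibitors of those kinases or of the next step (Cdkn1a, Cdkn1b, Cdkn1c, Cdkn2c) and the substrate Rb1. They were found by symbol among the 55487 genes of a count table of mouse brain, and all 10 passed the filter on low counts, which left 18609 genes. The family was chosen by the counts of Ccnd1 in evacetrapib-treated and vehicle-treated mice, since Ccnd1 is one of the genes the study names in that comparison, and the other 9 genes were added for their function. Values of that comparison are therefore a description, and counts of calls stand there beside the share of all genes with nothing read from them, while the comparison of genotypes and the difference of the drug's effect between genotypes were tested.

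RNA came from bulk brain of 16 female mice, 4 in each of 4 groups. All groups carried a human CETP transgene under its own promoter, on a C57BL/6J background and bred heterozygous, because mice lack this plasma protein that moves lipids between lipoproteins. APPtg/CETPtg mice carried in addition a human APP transgene with the Swedish and Indiana mutations, which the Thy1 promoter drives in neurons, and CETPtg mice did not. From 11 weeks of age both genotypes ate a diet with 1% cholesterol and were injected for 11 weeks with evacetrapib, a CETP inhibitor, at 30 mg per kg per day, or with vehicle.

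D-type cyclins bind CDK4 or CDK6, and the active pair phosphorylates the retinoblastoma protein, which then releases E2F factors and lets a cell pass from G1 into S phase. The INK4 protein p18, encoded by Cdkn2c, binds the kinases alone, whereas p21, p27 and p57, encoded by Cdkn1a, Cdkn1b and Cdkn1c, bind cyclin and kinase together. Most cells of the adult brain have left the cycle, and the dividing cells include glial precursors and the neuroblast lineage that supplies the olfactory bulb.

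Per mouse, between 21391335 and 55453789 reads were counted on genes. In CETPtg the totals were 28626139 to 37709734 under vehicle and 33684250 to 46800787 under evacetrapib. In APPtg/CETPtg they were at most 27398792, except for replicate S8 with 55453789, so depth went with genotype in all other mice. The 8 neuronal markers summed to between 8101 and 9170 CPM (counts scaled to the library size) in every mouse, whereas the cerebellar markers Gabra6 and Pcp2 were at 0 in at least 1 mouse. Thy1, the host gene of the APP transgene's promoter, measured 684 to 807 CPM in CETPtg and 865 to 2063 CPM in APPtg/CETPtg mice. The 24 pairs of replicates differed by more than sampling noise, with chi-square between 4.59 and 20.6 per degree of freedom. The genotypes shared 0 columns of the index plate and the treatments 0 rows, so column and genotype, or row and treatment, cannot be told apart. In bulk tissue, fewer cells of a type and less RNA per cell cannot be told apart either.

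Upstream sequence was available in a RefSeq table on GRCm38.p6 for 6 of the 10 genes, in 9 windows of 250 bases that end at a transcription start. The windows of Cdk4, the kinase whose level differed between genotypes, and of Cdkn1a, the gene with the widest spread within groups, are shown 5′ to 3′. Capitals mark the E-box CACGTG, which Myc, USF and CLOCK proteins bind, and the GC box GGGCGG, which Sp1 binds, on either strand. The Cdk4 window lies at chr10:127063285-127063534 and the Cdkn1a window, upstream of the inner start, at chr17:29093519-29093768, both on the plus strand.
Cdk4: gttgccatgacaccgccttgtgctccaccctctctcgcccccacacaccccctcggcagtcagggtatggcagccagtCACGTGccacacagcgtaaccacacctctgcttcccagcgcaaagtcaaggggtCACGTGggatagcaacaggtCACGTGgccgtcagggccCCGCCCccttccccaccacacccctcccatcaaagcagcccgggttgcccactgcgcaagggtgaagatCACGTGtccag
Cdkn1a: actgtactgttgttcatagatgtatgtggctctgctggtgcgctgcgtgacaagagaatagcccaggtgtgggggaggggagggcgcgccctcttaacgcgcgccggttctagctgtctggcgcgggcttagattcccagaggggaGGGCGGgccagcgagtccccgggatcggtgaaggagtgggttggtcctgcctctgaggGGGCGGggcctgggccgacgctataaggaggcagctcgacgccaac
The Cdk4 window holds 4 E-boxes and 1 GC box. An E-box was present in 6.02% of the 32851 windows of all genes, and at least 4 were present in 7 windows, or 0.0213%. The Cdkn1a window holds 2 GC boxes and 0 E-boxes, and the window at its outer start holds neither. GC boxes were present in 32.7% of all windows. Among the other members, Cdk6 had 1 E-box, and Ccnd3, Cdkn1b and Cdkn2c had 0. A match of letters is not a bound site.

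Levels between genes were compared as FPKM, CPM divided by length in kilobases, computed from the counts and the exon length of GENCODE M21. Cdk4 was the highest at 10.8 ± 0.94 FPKM (SD, n = 16 mice), level with Ccnd1 at 10.6 ± 0.99 FPKM, and both stood near the 76th percentile of the genes tested. Cdkn1b (7.68 FPKM), Ccnd2 (7.06 FPKM) and Cdkn1a (6.95 FPKM) followed, then Rb1 (4.67 FPKM), Cdkn1c (3.62 FPKM) and Ccnd3 (2.48 FPKM). Ranges over mice overlapped between neighbours in this order, except between Ccnd1 and Cdkn1b, where the lowest mouse for Ccnd1 (8.62 FPKM) stood just above the highest for Cdkn1b (8.60 FPKM). Cdkn2c, at 0.761 FPKM, and Cdk6, at 0.234 FPKM, were lower than every other member in every mouse, and every Cdk6 value was below every Cdkn2c value.

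Within the roles, the makeup was steady across mice for cyclins and kinases and less so for inhibitors. Ccnd1 made up 48.1% to 57.1% of the D cyclin FPKM, Ccnd2 30.2% to 39.6% and Ccnd3 10.3% to 14.1%. Cdk4 made up 97.4% to 98.8% of the FPKM of both kinases. Among the 4 inhibitors, by contrast, Cdkn1a ranged from 26.7% to 56.3% and Cdkn1c from 7.13% to 27.9%, whereas Cdkn1b ranged from 33.3% to 47.8%.

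**Figure D1:**
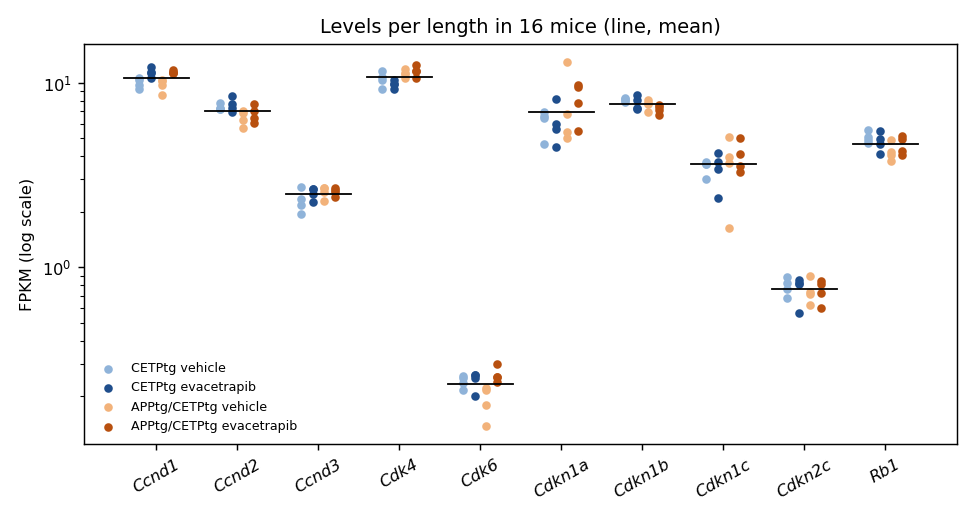
FPKM of the 10 genes (log axis), with 1 point per mouse coloured by group and a line at the mean of 16 mice. Cdk4 and Ccnd1 are highest, Cdkn2c and Cdk6 lie apart at the bottom, and Cdkn1a and Cdkn1c have the widest columns of points.

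To ask whether the APP transgene came with another level of the machinery, APPtg/CETPtg and CETPtg mice were compared over all 16 mice with treatment as a term. Ccnd2, the D cyclin of many neural progenitors, was lower and Cdk4 was higher in APPtg/CETPtg, and 8 of the 10 members did not pass the test. The 2 calls of 10 stand beside 17.7% of all tested genes called in that comparison (edgeR's quasi-likelihood test, with an adjusted p no higher than 0.05 and the study's minimum fold), so the share of members was near the background. Of all genes, 1740 were called higher and 1559 lower.

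Ccnd2 (chr6:127125162-127152193, minus strand) measured 68.9, 67.8, 73.5 and 67.8 CPM in the vehicle-treated CETPtg mice and 68.9, 72.2, 79.9 and 65.2 CPM in the evacetrapib-treated ones. In APPtg/CETPtg mice it measured 66.0, 53.6, 64.5 and 58.9 CPM under vehicle and 57.2, 60.7, 65.9 and 71.9 CPM under evacetrapib. The ranges overlapped, but 5 of 8 APPtg/CETPtg mice were below the lowest CETPtg mouse and 7 of 8 were below the CETPtg mean under the same treatment. The log2 fold change was -0.18 (SE 0.053, edgeR adjusted p = 0.0241). The call rested on single mice in part, since without the CETPtg evacetrapib replicate C, which had the highest Ccnd2, the adjusted p was 0.0542.

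Cdk4 (chr10:127063534-127067920, plus strand) measured 30.0, 37.8, 33.7 and 35.0 CPM in vehicle-treated and 32.2, 30.2, 32.0 and 33.4 CPM in evacetrapib-treated CETPtg mice. The APPtg/CETPtg mice had 36.6, 36.0, 38.4 and 34.6 CPM under vehicle and 37.7, 34.6, 40.7 and 37.7 CPM under evacetrapib. Each of the 8 APPtg/CETPtg mice stood above the CETPtg mean under the same treatment, and the groups overlapped only through vehicle-treated CETPtg mice. The log2 fold change was 0.16 (SE 0.048, edgeR adjusted p = 0.0219). The call was lost without APPtg/CETPtg evacetrapib replicate G (adjusted p = 0.0579), CETPtg vehicle replicate S1 (0.0656) or APPtg/CETPtg vehicle replicate S7 (0.0512). The last exon of Cdk4 overlaps 641 bases of exon of Tspan31 on the opposite strand, and the strand setting of the counting is not given in the sources used here.

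**Figure D2:**
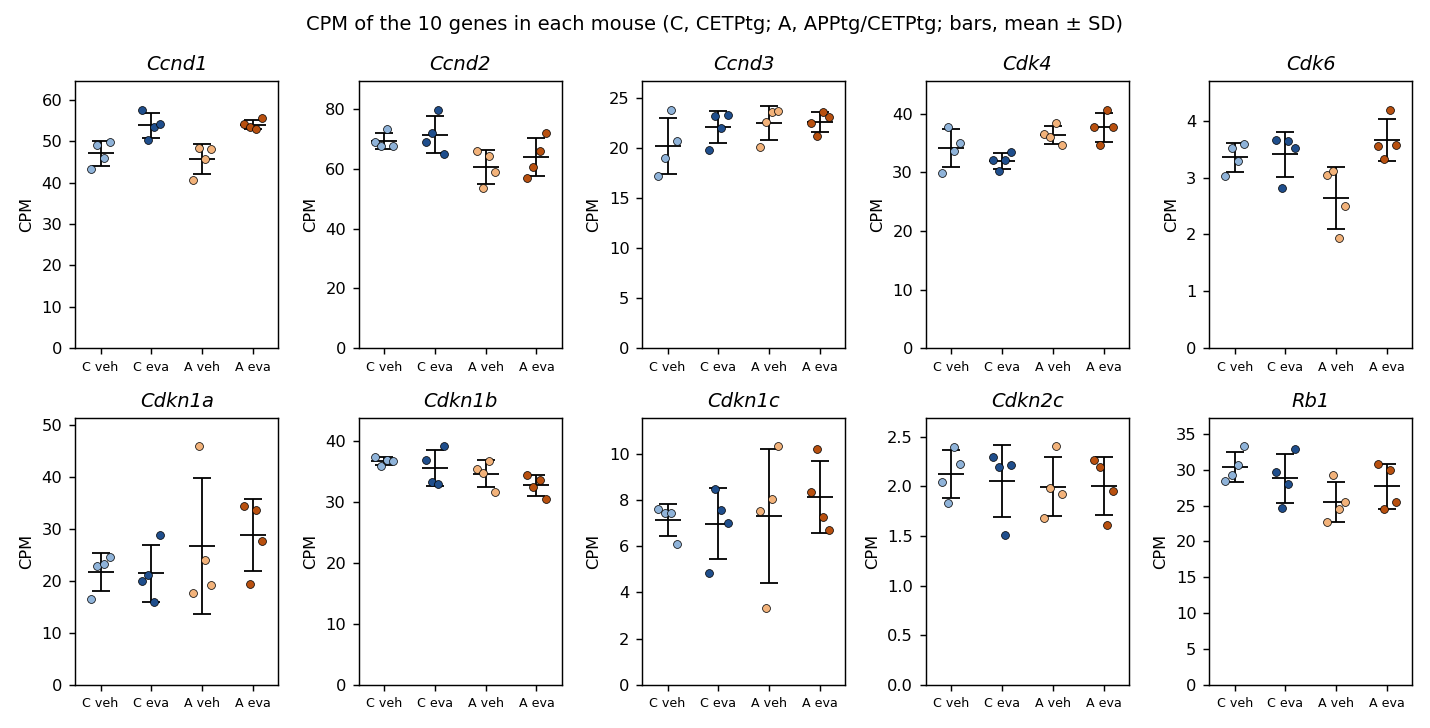
CPM of each gene in each mouse (linear axis from 0), by genotype and treatment, with mean and SD of 4 mice. Ccnd2 lies lower and Cdk4 higher in the APPtg/CETPtg groups, Ccnd1 lies higher in both evacetrapib groups, and 1 vehicle-treated APPtg/CETPtg mouse stands apart at 45.9 CPM for Cdkn1a and 3.33 CPM for Cdkn1c.

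The remaining members gave no call over all mice. Rb1, the substrate, had a log2 fold change of -0.15 (SE 0.068, edgeR adjusted p = 0.127), and Cdkn1b, which encodes p27, of -0.10 (SE 0.042, edgeR adjusted p = 0.101). With the 2 called, these made 4 of 10 members with an unadjusted p under 0.05, beside 30.5% of all genes. Cdkn1a, which encodes the stress-inducible p21, had the largest value, 0.35, with the largest error (SE 0.17, edgeR adjusted p = 0.168). Ccnd1 had -0.02 (SE 0.042), an interval of 2 SE that spans -0.10 to 0.07. Ccnd3, Cdk6, Cdkn1c and Cdkn2c lay between -0.13 and 0.14.

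The genotype comparison moved with gene length. Over 18589 genes, Spearman's rho of log2 fold change with exon length was -0.32 (a description across genes, which are not independent), and the median was 0.08 for genes under 2500 bases and -0.06 for genes over 6000 bases. Relative to genes whose length was within 25% of its own, Ccnd2 (9409 bases) was at -0.12 in place of -0.18, and Cdk4 (3249 bases) at 0.13 in place of 0.16 on the log2 scale. The part of length in either call was not tested.

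Markers of other cells moved in the genotype comparison too. Of the 8 oligodendrocyte markers 4 were called lower by edgeR and 0 were above 0 (median -0.22). Of the 8 microglia markers 4 were called higher and 7 were above 0 (median 0.18). Other lists held fewer calls, such as 2 lower among 8 oligodendrocyte precursor markers, and 1 higher and 2 lower among 8 astrocyte markers. All 6 tested cerebellar markers were below 0, with 1 called. Of all genes, 17.7% were called in that comparison. The oligodendrocyte markers summed to 4285 to 4964 CPM under vehicle and 4309 to 5007 CPM under evacetrapib in CETPtg, and to 3434 to 4648 and 3357 to 4381 CPM in APPtg/CETPtg. For microglia the corresponding ranges were 380 to 417 and 354 to 408 CPM, and 383 to 464 and 419 to 465 CPM. Within groups Ccnd2 had r = 0.63 and rho = 0.57 with the oligodendrocyte list (permutation p = 0.0467 and 0.0755, adjusted p = 0.35 and 0.47 over 240 relations, r without 2 mice 0.49, n = 16), which did not pass. Ccnd2 had r = -0.28 with the microglia list and 0.65 with the striatal list. Cdk4 had r = 0.29 with the oligodendrocyte list and -0.24 with the microglia list. Its largest r with a cell type list were 0.52 for the cerebellar, 0.50 for the olfactory bulb and 0.49 for the neuroblast list. None of these passed either. The part of these cells in the Ccnd2 and Cdk4 values was not tested.

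Within each treatment the same comparison gave 0 calls among the members. Under vehicle, 10.4% of all genes were called by edgeR, and 3 of 10 members had an unadjusted p under 0.05, beside 25.2% of all genes. These were Rb1 at -0.25 (SE 0.092, edgeR adjusted p = 0.0899), Ccnd2 at -0.19 (SE 0.076, 0.112) and Cdk6 at -0.36 (SE 0.14, 0.125). Ccnd2 was the 1 member whose groups did not overlap, beside 17.0% of all genes. Under evacetrapib, 2.99% of all genes were called, and Cdk4 came nearest, at 0.24 (SE 0.065, edgeR adjusted p = 0.0542). It was again 1 member without overlap between groups, with CETPtg mice at 30.2 to 33.4 CPM and APPtg/CETPtg mice at 34.6 to 40.7 CPM, beside 10.8% of all genes.

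By other tools the evacetrapib-treated groups gave 1 call, since the Wald test of DESeq2 called Cdk4 (adjusted p = 0.0238), and limma-voom called 0 members. The difference of the drug's effect between genotypes gave 0 calls among the members and among all genes by edgeR (0.0%), where 1271 genes had an unadjusted p under 0.05. DESeq2 called 2 genes in all and limma-voom 0, and neither called a member. The largest difference among the members was that of Cdk6, 0.46 (SE 0.20, edgeR adjusted p = 0.708). The interval of 2 SE for Ccnd1 ran from -0.13 to 0.21.

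**Figure D3:**
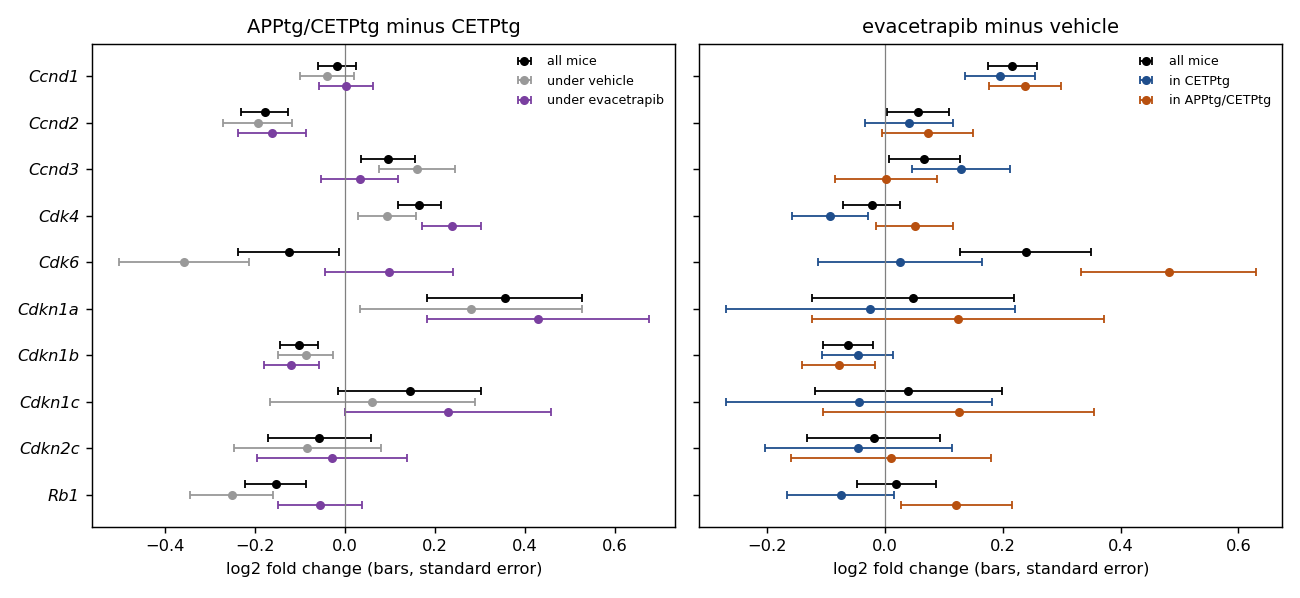
Log2 fold changes with standard errors for APPtg/CETPtg minus CETPtg (left) and evacetrapib minus vehicle (right), over all mice and within each arm. On the left Ccnd2 lies below 0 and Cdk4 above it in all 3 fits, and on the right Ccnd1 lies near 0.2 in all 3.

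The comparison of evacetrapib with vehicle is the one that chose the family. Ccnd1 (chr7:144929931-144939925, minus strand), the D cyclin that growth factor and Wnt signals induce, measured 43.4, 49.0, 46.0 and 49.9 CPM in vehicle-treated CETPtg mice and 57.6, 50.2, 53.5 and 54.1 CPM in evacetrapib-treated ones. In APPtg/CETPtg mice it measured 40.6, 48.4, 45.7 and 48.0 CPM under vehicle and 54.1, 53.4, 52.9 and 55.5 CPM under evacetrapib. The 2 treatments did not overlap, with the lowest mouse on the drug at 50.2 CPM and the highest on vehicle at 49.9 CPM. The log2 fold change was 0.22 (SE 0.042) over all mice, 0.20 (SE 0.060) in CETPtg and 0.24 (SE 0.061) in APPtg/CETPtg. Groups without overlap over all mice were found for 1 of 10 members and for 10 genes in all, or 0.0537%, and nothing is read from that count here because it belongs to the choice of Ccnd1.

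By edgeR, 0 of the 10 members were called over all mice, in CETPtg or in APPtg/CETPtg, where 0.0107%, 0.0% and 0.043% of all genes were called. At an unadjusted p under 0.05 there were 1472, 1079 and 1677 genes in the 3 comparisons, and DESeq2 called 59, 0 and 73 genes and limma-voom 2, 0 and 7. Groups within a genotype did not overlap for Ccnd1 in CETPtg, where this held for 3.92% of all genes, and for Ccnd1 and Cdk6 in APPtg/CETPtg, where it held for 4.29%. Cdk6, the scarce kinase, measured 3.04, 3.11, 1.93 and 2.50 CPM under vehicle and 3.55, 3.33, 4.19 and 3.57 CPM under evacetrapib in the mice with the APP transgene. There the log2 fold change was 0.48 (SE 0.15), against 0.03 (SE 0.14) in CETPtg, and the 2 values share no mice. The counts behind Cdk6 were 53 to 166 reads per mouse. The other 8 members lay between -0.06 and 0.07 over all mice.

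Endothelial markers were higher on evacetrapib in the same comparison, but 0 of the 10 were called by edgeR. All 10 genes of the endothelial list had a positive log2 fold change over all mice (median 0.27), and the study itself chose Pecam1, Cdh5 and Flt1 of these on the same mice. Their summed level was 226 to 259 CPM under vehicle and 250 to 286 CPM under evacetrapib in CETPtg, and 208 to 262 against 270 to 311 CPM in APPtg/CETPtg, with 0 of the 10 genes at 0 in any mouse. The 8 pericyte markers (median 0.16) and the 6 tested smooth muscle markers (median 0.44) were likewise all positive. Of these, edgeR called 0 and 1, beside 0.0107% of all genes. The 8 ependymal markers were all negative (median -0.07), with 0 called. Of the smooth muscle list, the study itself chose Acta2, Myh11 and Tagln on the same mice. The 8 choroid plexus markers were all negative over all mice (median -0.58) and in APPtg/CETPtg (median -1.19), whereas 5 of 8 were in CETPtg (median -0.10). In APPtg/CETPtg their sum varied widely between mice, from 12.6 to 470 CPM under vehicle and 13.6 to 31.0 CPM under evacetrapib. Over all mice 1 of the 8 striatal markers was positive (median -0.10). The 8 meningeal fibroblast markers were all positive in APPtg/CETPtg (median 0.35), and 3 of 8 were in CETPtg. Across mice, as deviations from the group means, Ccnd1 and the endothelial list had r = 0.68 and rho = 0.72 (permutation p = 0.0266 and 0.00613, adjusted p = 0.35 and 0.237 over 240 relations, r without 2 mice 0.62, n = 16), which did not pass. Ccnd1 had r = 0.59 with the astrocyte list and 0.58 with the blood list (permutation p = 0.0379 and 0.0464, adjusted p = 0.35 for each), which did not pass either. Whether RNA of endothelial or other cells has a part in the Ccnd1 values was not tested. Exons of Ccnd1 share 1100 bases with LTO1 on the opposite strand.

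The inhibitors Cdkn1a and Cdkn1c differed most between mice of the same group. Cdkn1a (chr17:29090976-29100727, plus strand) measured 16.5, 22.8, 23.3 and 24.6 CPM in vehicle-treated and 20.0, 21.1, 15.9 and 28.8 CPM in evacetrapib-treated CETPtg mice. The APPtg/CETPtg mice had 17.7, 45.9, 24.1 and 19.2 CPM under vehicle and 34.4, 19.4, 33.7 and 27.7 CPM under evacetrapib. The range was 2.90-fold from the lowest to the highest mouse, and all 4 groups overlapped. Its SD within groups was 0.43 on the log2 scale, at the 99.5th percentile of 2601 genes of like level, whose median SD was 0.098.

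Cdkn1c, which encodes p57 and is an imprinted gene, had an SD of 0.42, at the 97.3rd percentile of genes of its level, with a range of 3.33 to 10.3 CPM. Rb1 had 0.15 (88.2nd percentile) and Ccnd2 0.12 (85.1st percentile), whereas Ccnd1, Cdk4, Cdk6, Cdkn1b and Cdkn2c lay between the 27.5th and the 55.4th percentile. The mouse highest for Cdkn1a was the lowest for Cdkn1c. Without it (APPtg/CETPtg vehicle replicate S6), the genotype value of Cdkn1a under vehicle was -0.11 in place of 0.28 on the log2 scale, and neither passed the test.

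To describe what varied with the members, each was set against 7 pathway and 17 cell type lists across the 16 mice, using the mean log2 CPM of a list and the deviations from group means. Of 240 relations, 2 passed Benjamini-Hochberg adjustment by Pearson's r and the same number by Spearman's rho, and 33 had an unadjusted p of at most 0.05. Both that passed were of Cdkn1a. With the 8 olfactory bulb markers, r was 0.96 and rho 0.94 (permutation p = 2e-05 for each, the smallest the permutations can give, adjusted p = 0.0048), and r was 0.95 without the 2 most distant mice. With the 8 neuroblast markers, r was 0.96 and rho 0.95 (permutation p = 4e-05 and 7e-05, adjusted p = 0.0048 and 0.0084), and r was 0.95 without 2 mice. Single neuroblast markers ran from r = 0.39 for Sox11 to 0.97 for Dlx1. Whether the neuroblast relation is separate from that with the olfactory bulb list was not tested.

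Each of the 8 olfactory bulb markers, which include the mitral and tufted cell genes Cdhr1, Eomes and Tbx21, was positively related to Cdkn1a, with r from 0.88 to 0.98. The summed level of the list differed widely within groups, from 38.3 to 303 CPM in vehicle-treated and 67.0 to 328 CPM in evacetrapib-treated APPtg/CETPtg mice, and from 139 to 272 and 82.6 to 284 CPM in the corresponding CETPtg groups. None of the 8 markers was at 0 in any mouse. In the genotype comparison over all mice, 0 of the 8 were called and all 8 were below 0, with a median log2 fold change of -0.12. By treatment the sign turned, with all 8 below 0 under vehicle (median -0.87), all 8 above 0 under evacetrapib (median 0.65) and 0 called in either. The evacetrapib values of the list had a median of -0.69 in CETPtg and 0.86 in APPtg/CETPtg. How much olfactory bulb each piece of tissue held was not tested.

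With the mean of the olfactory bulb list as a term in the fit, an alternative added after the data had been seen, the within-group SD of Cdkn1a went from 0.43 to 0.12 and that of Rb1 from 0.15 to 0.10. The list had r = 0.96 with Cdkn1a in the same mice, so the smaller SD of Cdkn1a restates that relation. In that fit the genotype value of Cdkn1a over all mice was 0.46 (SE 0.075, edgeR adjusted p = 0.000336), and under vehicle 0.73 (SE 0.086, edgeR adjusted p = 8.5e-05). Under evacetrapib the value was 0.22 (SE 0.079, edgeR adjusted p = 0.115) and did not pass, and the difference of the drug's effect between genotypes was -0.51 (SE 0.12, edgeR adjusted p = 0.375). Ccnd2 and Cdk4 kept their calls over all mice, at -0.19 and 0.19. For Rb1 the alternative fits, which include this one, gave -0.33 to -0.11 under vehicle, against -0.25 in the main fit. Over all mice they gave -0.20 to -0.11, against -0.15. The SD of Cdkn1c was less affected, with 0.42 before and 0.35 after. Without the term, the genotype value of Cdkn1a was 0.35 over all mice and 0.28 under vehicle (edgeR adjusted p = 0.168 and 0.522). The score was 3.39 to 4.49 in vehicle-treated CETPtg mice, but 1.03 and 1.68 in APPtg/CETPtg vehicle replicates S5 and S8. Under vehicle the fit with the term thus reaches beyond the CETPtg scores for each APPtg/CETPtg mouse, and its Cdkn1a values are a description.

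**Figure D4:**
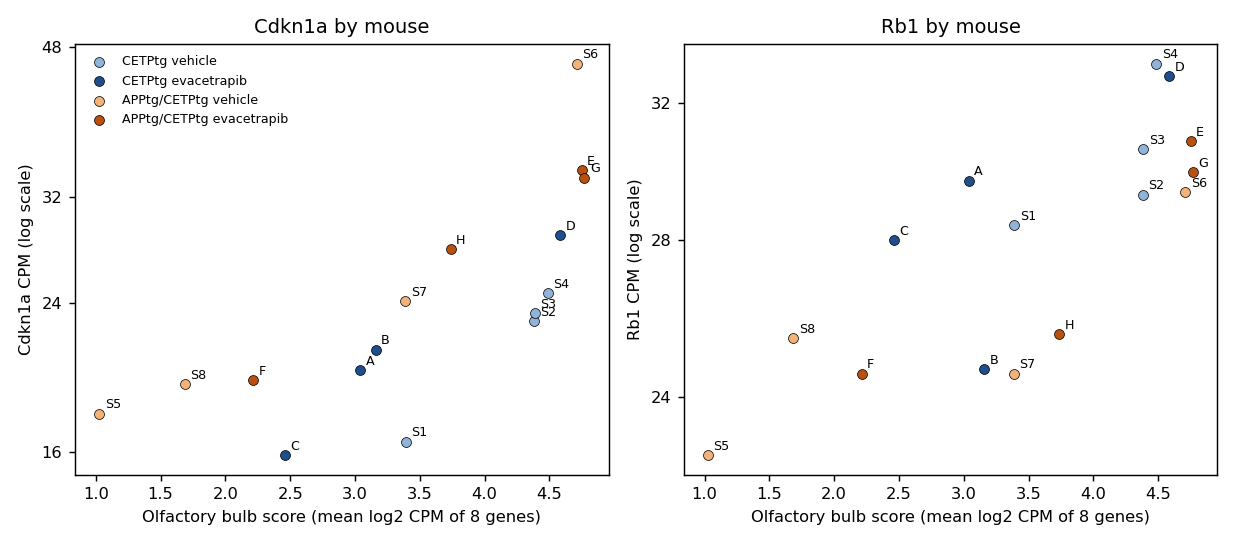
CPM of Cdkn1a (left) and Rb1 (right, both log axes) in each mouse against the mean log2 CPM of 8 olfactory bulb markers, with 1 labelled point per mouse. Cdkn1a rises with the score within each group, and at similar scores most APPtg/CETPtg mice lie above CETPtg mice. Replicates S5, S8 and F score below every CETPtg mouse.

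Rb1 had r = 0.80 with the neuroblast and 0.77 with the olfactory bulb markers, Cdk4 had 0.75 with the Wnt and AP-1 list, and Ccnd2 had 0.74 with the ependymal markers. Their rho lay between 0.66 and 0.74, and r without 2 mice between 0.61 and 0.75. The permutation p of r was 0.00182 to 0.00304 and its adjusted p 0.122 for each of these 4. For rho the permutation p was 0.00211 to 0.0147 and the adjusted p 0.169 to 0.271, so they did not pass. Cdkn1c had r = -0.82 and rho = -0.57 with the neuronal markers (permutation p = 0.0366 and 0.0785, adjusted p = 0.350 and 0.470), but r was -0.35 without 2 mice, one of them the mouse lowest for Cdkn1c, so the relation rests on those mice. Cdkn1c had r = 0.61 and rho = 0.56 with the choroid plexus markers (permutation p = 0.0345 and 0.0356, adjusted p = 0.350 and 0.378, r without 2 mice 0.56), which did not pass. Those markers summed to 11.7 to 174 CPM under vehicle and 16.5 to 127 CPM under evacetrapib in CETPtg, and to 12.6 to 470 and 13.6 to 31.0 CPM in APPtg/CETPtg. Among the 45 pairs of members the median r was 0.13, 2 were above 0.5 and 6 below -0.5. The extremes were 0.77 for Cdkn1a with Rb1 and -0.69 for Cdkn1a with Cdkn1c, given as a description over 16 mice.

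**Figure D5:**
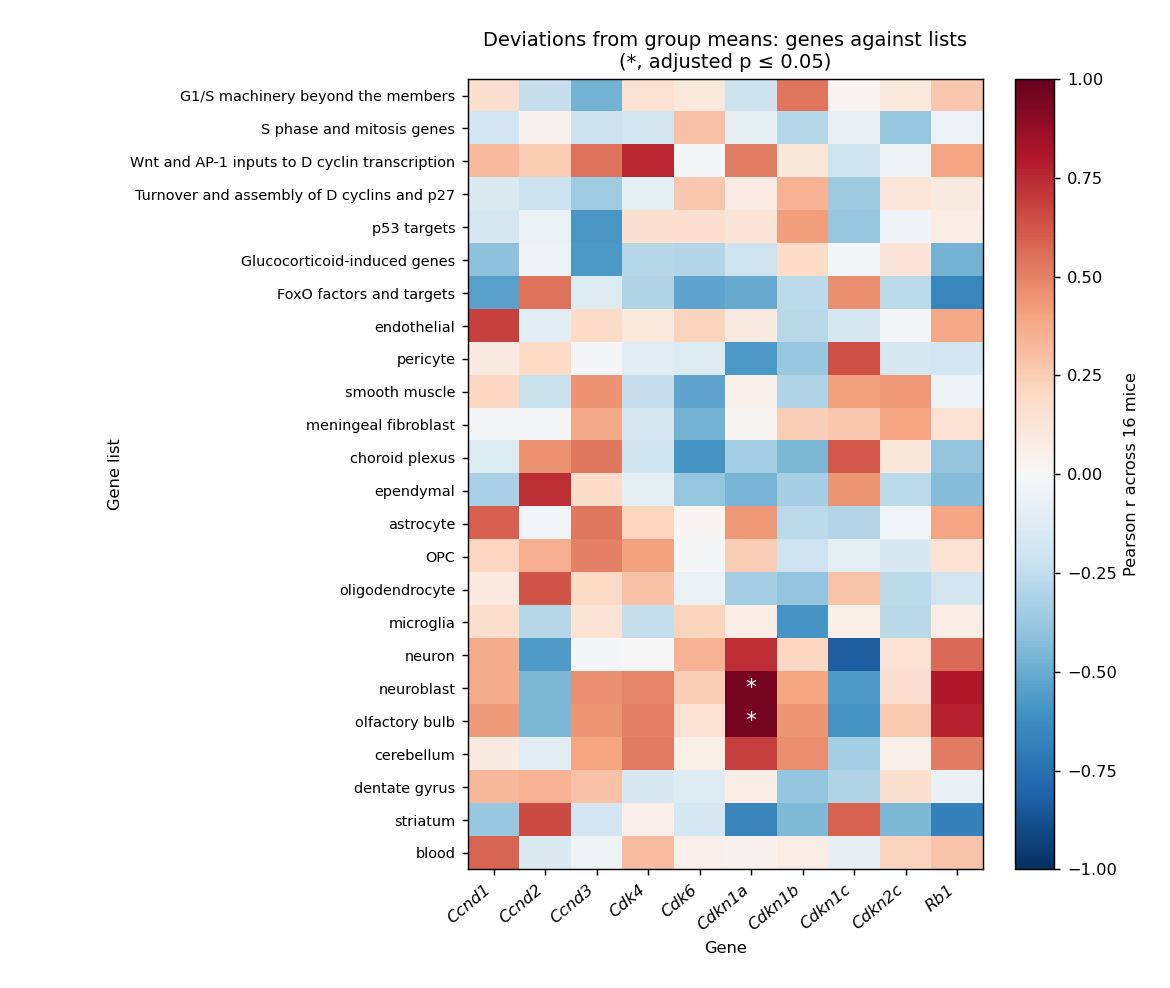
Pearson r, as colour from -1 to 1, between each gene (columns) and the mean of each gene list (rows), over 16 mice and after removal of group means. The 2 starred cells, Cdkn1a with the neuroblast and olfactory bulb lists at r = 0.96, passed adjustment over 240 relations, and Rb1 has the next darkest cells in those rows.

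The genes most like each member across the 16 mice, by the same deviations, were found among all genes tested and are a description without a test. Cdkn1a was closest to Klhl30, Ush1g and Shisa3 (r = 0.98 for each), and 400 genes had r over 0.8 with it. Shisa3 is itself on the olfactory bulb list. Rb1 was closest to C130071C03Rik (0.95), Chrna3 (0.93) and Wls (0.92), with 141 genes over 0.8. Cdkn1c was closest to Nub1 (0.90), Spint2 (0.90) and Ltk (0.88), with 49 such genes.

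For the cyclins and kinases the corresponding sets were smaller, at 8 to 37 genes. Ccnd1 was closest to Ticam1 (0.91), Gm35755 (0.88) and Gm44414 (0.87), Ccnd2 to Plk3 (0.91), Elf1 (0.90) and Ano2 (0.89), and Ccnd3 to Pgpep1 (0.88), Kank2 (0.86) and Tmem176b (0.85). Cdk4 was closest to Homer3 (0.94), E530001F21Rik (0.91) and Rdh13 (0.82), and Cdk6 to Gm44559 (0.91), Entr1 (0.88) and Mterf1b (0.87). The remaining inhibitors had 16 such genes for Cdkn1b, led by Ypel5 (0.88), Trim44 (0.86) and Hnrnpab (0.86), and 10 for Cdkn2c, led by Eif4enif1 (0.90), Dnajc5 (0.89) and Nif3l1 (0.88).

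The rest of the pathway was read in lists, and counts of calls over all mice stand beside 17.7% of all genes called. Whether a list differs from that share was not tested. Of 18 tested genes of the G1/S machinery, 2 rose and 1 fell in APPtg/CETPtg over all mice. These were Cdkn2d, which encodes the INK4 inhibitor p19 (0.16, SE 0.041, edgeR adjusted p = 0.00941), Ccne1, the cyclin of the next step (0.16, SE 0.049, 0.0272), and Tfdp2, a partner of E2F factors (-0.16, SE 0.048, 0.0254). Of 17 S phase and mitosis genes none was called by edgeR and 2 had an unadjusted p under 0.05. The mitotic cyclin Ccnb1 had 0.53 (SE 0.19, 0.0548) and the proliferation marker Mki67 had -0.34 (SE 0.14, 0.0942), so their signs differed. The median of the S phase list was 0.06 and that of all genes 0.00.

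Of 17 Wnt and AP-1 genes, which feed into the transcription of D cyclins, 2 rose and 4 fell by edgeR, beside 17.7% of all genes called. Jun (0.34, SE 0.062, adjusted p = 0.000967) and Fosl2 (0.44, 0.0291) rose. The kinase Gsk3b, which marks D cyclins and beta-catenin for breakdown, fell by 0.27 (adjusted p = 0.000283), the co-receptor Lrp6 by 0.16 (0.0134), the beta-catenin scaffold Apc by 0.20 (0.0466) and the factor Tcf7l2 by 0.60 (0.022) on the log2 scale. Of 13 genes that degrade or assemble D cyclins and p27, 2 rose and 1 fell, namely the ligase subunit Rbx1 (0.14), the kinase chaperone partner Cdc37 (0.12) and the scaffold Cul4b (-0.15).

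The p53 list held 15 genes, Trp53 itself and p53 targets, to which Cdkn1a belongs by textbook. Of these, 1 rose and 2 fell by edgeR, beside 17.7% of all genes called. The apoptosis gene Bax had 0.24 (adjusted p = 0.000541), Zmat3 had -0.36 (9.3e-05) and Trp53inp1 had -0.29 (0.0111). Of 10 glucocorticoid-induced genes Ddit4 alone was called over all mice (0.32, 0.0248), and of 9 FoxO genes Foxo1 alone (-0.19, 0.0144).

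Under vehicle, where 10.4% of all genes were called, the lists held calls in both directions by edgeR. Of the 17 Wnt and AP-1 genes 3 were higher in APPtg/CETPtg, namely Jun (0.41, adjusted p = 0.00718), Junb (0.74, 0.00659) and Fos (0.96, 0.0343), and 4 were lower, namely Gsk3b (-0.30, 0.00603), Lrp6 (-0.23, 0.0151), Tcf7l2 (-0.82, 0.0354) and Apc (-0.31, 0.0438). Of the 15 genes of the p53 list Bax (0.26, 0.0089) and Btg2 (0.86, 0.00872) were higher and Zmat3 was lower (-0.32, 0.00807). Of the 10 glucocorticoid-induced genes 4 were higher and 0 lower, namely Sgk1 (0.63, 0.0412), Tsc22d3 (0.31, 0.0461), Ddit4 (0.53, 0.0089) and Nfkbia (0.37, 0.0302). Rbx1 (0.16, 0.0493), Cdc37 (0.17, 0.0326) and Cdkn2d (0.22, 0.0159) were higher as well, and 0 genes of the S phase and FoxO lists were called. Under evacetrapib 3 genes of the lists were called, Gsk3b, Bax and Zmat3, beside 2.99% of all genes. The difference between these comparisons is the interaction, in which 0 genes of any pathway list were called.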

How the data were processed

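Poly(A) RNA of bulk brain from 16 female mice was sequenced as paired directional libraries. The authors deposited raw read counts on genes, which they made by trimming with Trimmomatic 0.39, aligning to mm10 with STAR 2.7.8a and counting with HTSeq-count. The submitters' processing notes also name Picard 2.0.1. The HTSeq version, its strand setting and the annotation are not given in the sources used here. Gene identifiers matched GENCODE M21 for 55227 of 55487 rows, 0 rows named no gene, and every mouse had its column, with 0 left over.

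The test covered the 18609 genes that reached 10 counts in 4 or more mice. Counts were TMM-normalized and tested in edgeR 4.0.16 (quasi-likelihood, two-sided, R 4.3.3) with Benjamini-Hochberg adjustment. A call needed an adjusted p no higher than 0.05 and the study's minimum fold change. Genotypes were compared with treatment as a term, and within treatments from the 4 group means. CPM used TMM library sizes, and log2 CPM a prior count of 2. Relations across mice were tested with 100000 permutations in scipy 1.17.1. The steps were tested on simulated counts.

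Alternatives were DESeq2 1.42.0 (size factors and Wald test), limma-voom (limma 3.58.1), other filters and thresholds, smaller fits, each mouse left out, other scores for the lists, thinned counts, and, added after the data had been seen, the header number as a block, the olfactory bulb score as a term, and relations with each mouse left out. The members and lists were chosen with earlier results of these data known. The text names all members, the list genes called or with the 2 smallest p in the genotype comparison, and the 3 genes most like each member. The labels call the samples separate mice, and header numbers did not pair them, so the p-values measure the spread between mice. Same-numbered mice correlated at -0.21 to 0.17. FPKM was computed from the counts and exon length, and the authors' own FPKM values and comparisons were not used here. Counting precision is limited by depth, 35 to 3281 reads per mouse and member.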

Additional observations from a re-analysis of the deposited data

Results flagged for a closer look

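Of 40 groups of 4 mice, 3 held a mouse whose distance to its nearest neighbour, as a share of the range of the group, was above Dixon's 95% critical value. Chance flags about 1 in 20 groups. Cdk6 measured 2.82 CPM in the CETPtg evacetrapib replicate B (ratio 0.831), Cdkn1c measured 6.10 CPM in the CETPtg vehicle replicate S4 (0.885), and Cdkn2c measured 1.51 CPM in the CETPtg evacetrapib replicate C (0.865). All 3 were the lowest of their group.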

How the results depend on the processing

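The count of members called between genotypes over all mice was 2, and 1 to 3 with each mouse left out (1 without replicate C, G, S1 or S7, 3 without B, when Rb1 was called). Under vehicle it was 0, 1 at an adjusted p of at most 0.1 (Rb1), 0 to 1 with each mouse left out (1 without S6, Rb1), and 2 with the olfactory bulb score as a term (Ccnd2, Cdkn1a). Under evacetrapib it was 0, and 1 (Cdk4) by DESeq2, with at least 10 counts in every mouse or at an adjusted p of at most 0.1, and 0 to 1 with each mouse left out (1 without S1). Between evacetrapib and vehicle it was 0, and 1 (Ccnd1) by DESeq2 over all mice and in APPtg/CETPtg, and with no filter over all mice, from which nothing is read because this comparison chose the family. Of 240 relations, 2 passed, 5 with the median of a list and 13 with group means kept, and with each mouse left out Cdkn1a kept r of 0.95 to 0.99 with the olfactory bulb list. No value changed sign among those called. As a replicate block, the header number left the count over all mice at 2 and changed no other count of members. The cause of these changes was not tested.

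Counts over all genes moved by more than 1.5 times in some fits. Between genotypes under vehicle 1934 became 3007 at an adjusted p of at most 0.1 and 909 to 1998 with each mouse left out (909 without S3, 1007 without S1, 1215 without S8), and under evacetrapib 556 became 1135 by DESeq2, 1260 at that threshold, 327 in a fit to 8 mice, and 91 to 858 with each mouse left out (91 without A, 206 to 335 without C, E, F, G or H, 858 without B). The interaction gave 0, 0 to 1 with each mouse left out, 2 by DESeq2 and with the olfactory bulb score, and 29 with no filter. Evacetrapib gave 2 over all mice, 59 by DESeq2, 35 with no filter, 1 without the genotype term and 0 to 8 with each mouse left out (8 without S8). In CETPtg it gave 0, and 9 with no filter. In APPtg/CETPtg it gave 8, 73 by DESeq2, 88 with no filter, 2 in a fit to 8 mice, 5 with the replicate block, 0 to 14 with each mouse left out (0 without G, 14 without S8) and 17 with the olfactory bulb score.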
